A study of Mus musculus with 12 samples.

Results

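The untreated DG NSCs described here are the 3 Veh-Veh libraries, chosen by that name in the header line of the normalized count table, of 12 bulk RNA-seq libraries in all. NSCs are neural stem cells, here wild type cells of the C57Bl6J mouse strain taken from the dentate gyrus (DG) of the hippocampus and grown as an adherent layer. In each group 3 wells of passage 4 cells, 75000 cells a well, received vehicle or 1 µM of the glutamate transporter inhibitor TFB-TBOA for 15 min and then vehicle or 100 µM glutamate for 48 h. Veh-Veh had vehicle at both steps, Veh-Glut had vehicle and then glutamate, TFBTBOA-Veh had the inhibitor and then vehicle, and TFBTBOA-Glut had both agents. Every group, Veh-Veh included, was in Neurobasal A with B27, GlutaMAX and 20 ng/ml each of EGF and FGF2 on poly-D-lysine and laminin, so untreated means without the inhibitor and without added glutamate, not without growth factors. The study's methods describe 2 lines from mice of 6 weeks of age, 1 pooled from the DG of 4 males and 1 from 4 females. The labels do not say which line these wells came from. All 12 libraries held Xist, the RNA of the inactive X chromosome, and none held a read of 4 Y-linked genes. That is the pattern of cells from females. Since the replicates are wells, the spread between them may be technical.

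In the adult DG, stem cells with radial glia-like features lie under the granule neurons, divide rarely, and give rise to intermediate progenitors, neuroblasts and granule neurons, and to astrocytes. They share much of their gene expression with astrocytes, among it glutamate uptake. In tissue the study took cells with both GFAP and SOX2 protein as NSCs when radial in shape and as astrocytes when stellate. In culture, EGF and FGF2 keep such cells in the cell cycle and hold back differentiation. The question put to these libraries was which genes of these programs the untreated cells held, at what level, and which were absent.

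The 3 libraries held 14051705 to 17215581 reads, recovered from the deposited values, against 13064545 to 18372691 over all 12. Levels are given as TPM, a transcript abundance corrected for length, which is the normalized count per base of summed exon length scaled to the same sum over all genes with a model in every library, so that genes of different length can be compared. A gene is called detected at a TPM of at least 1 in all 3 libraries, at 0 when none of the 3 held a read, and a trace otherwise. Of 47884 genes with a model, 13199 were detected (27.6%), 10443 were traces and 24242 were at 0. Among 21710 protein-coding genes, 11257 were detected (51.9%) and 5866 were at 0 (27%), and these shares are the background for the counts of list members that follow. Replicate 3 held reads for 21496 entries of the table, more than the 19682 and 19393 of replicates 1 and 2, and 2884 entries had reads there alone against 1212 and 1037. Those entries took 0.0552% of its reads with a median of 2 reads each, and without replicate 3 the detected genes numbered 13574. Of the genes detected in Veh-Veh, 12354 (93.6%) also reached 1 TPM in each of the other 9 libraries. A value written with ± is the mean and SD of the 3 libraries, and 3 values in a row are replicates 1, 2 and 3. All values are from bulk RNA, so fewer cells expressing a gene and less of its RNA per cell cannot be told apart.

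The 5 genes given as marks of NSC identity were all detected. Fabp7, which encodes the fatty acid binding protein of radial glia, lies at chr10:57784881-57788450 on the plus strand and had TPMs of 4632, 4741 and 4578 in replicates 1, 2 and 3, 4651 ± 83.0 (SD, n = 3). Vim encodes vimentin, an intermediate filament of immature glia, at chr2:13573927-13582826 on the plus strand, and had 1111, 1131 and 1020.1 TPM. Nes encodes nestin, the filament by which neural progenitors are most often recognised, at chr3:87971078-87980451 on the plus strand, and had 973, 987 and 974 TPM. The 3 libraries were almost level for both filaments. Slc1a3, at chr15:8634124-8710764 on the minus strand, encodes the glutamate transporter EAAT1 and had 766, 746 and 862 TPM. Sox2, a transcription factor of stem and progenitor cells at chr3:34650405-34652461 on the plus strand, had 21.5, 19.6 and 22.1 TPM, the lowest of the 5 and below the median TPM of all detected genes, 21.9. Coordinates are those of GENCODE M21 on GRCm38. In the order of levels each of the 5 lay wholly above the next, with no overlap between libraries. With the length of the longest transcript in place of the summed exons, Slc1a3 came to lie above Nes (log2 ratio of Nes to Slc1a3 -0.57), so the order of this pair depends on the length used.

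The sequences before the start sites of 4 abundant genes and 2 genes at 0 are shown because the share of CpG dinucleotides in this stretch differed more than any other feature examined between genes that were high and genes that were at 0. Each is the 250 bases upstream of the RefSeq start site on GRCm38.p6, 5′ to 3′ on the gene's own strand, with CpG dinucleotides in capitals.
Ckb: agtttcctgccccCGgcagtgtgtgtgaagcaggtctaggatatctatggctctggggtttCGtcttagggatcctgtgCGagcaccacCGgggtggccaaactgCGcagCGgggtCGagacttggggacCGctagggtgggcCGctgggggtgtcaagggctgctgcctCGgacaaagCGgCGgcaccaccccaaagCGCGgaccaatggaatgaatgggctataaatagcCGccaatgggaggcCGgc
Fabp7: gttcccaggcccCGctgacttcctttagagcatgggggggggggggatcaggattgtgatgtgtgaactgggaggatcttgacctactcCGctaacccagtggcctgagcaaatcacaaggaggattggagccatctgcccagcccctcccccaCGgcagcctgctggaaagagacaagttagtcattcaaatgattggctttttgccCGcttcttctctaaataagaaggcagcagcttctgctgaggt
Slc1a3: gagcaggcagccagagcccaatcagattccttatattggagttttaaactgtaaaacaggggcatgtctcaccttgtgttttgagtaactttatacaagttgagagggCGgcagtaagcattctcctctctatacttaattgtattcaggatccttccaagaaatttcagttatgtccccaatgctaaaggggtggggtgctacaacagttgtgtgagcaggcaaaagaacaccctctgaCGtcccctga
Nes: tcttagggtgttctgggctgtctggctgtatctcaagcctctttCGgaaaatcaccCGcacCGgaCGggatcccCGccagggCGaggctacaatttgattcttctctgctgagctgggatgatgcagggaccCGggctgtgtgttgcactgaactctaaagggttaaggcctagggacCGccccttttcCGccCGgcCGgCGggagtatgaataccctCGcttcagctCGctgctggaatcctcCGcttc
Mog: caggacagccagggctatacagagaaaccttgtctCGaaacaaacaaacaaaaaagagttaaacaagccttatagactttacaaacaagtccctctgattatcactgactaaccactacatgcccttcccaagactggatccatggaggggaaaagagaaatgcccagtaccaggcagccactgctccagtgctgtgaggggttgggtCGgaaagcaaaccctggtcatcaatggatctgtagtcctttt
Slc17a7: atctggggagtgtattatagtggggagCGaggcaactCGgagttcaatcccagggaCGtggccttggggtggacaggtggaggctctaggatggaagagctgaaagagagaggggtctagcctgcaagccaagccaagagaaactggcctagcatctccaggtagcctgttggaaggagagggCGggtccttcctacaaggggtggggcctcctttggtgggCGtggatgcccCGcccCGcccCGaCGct
They lie at chr12:111672339-111672588, minus strand for Ckb (brain creatine kinase), chr10:57784673-57784922, plus strand for Fabp7, chr15:8710808-8711057, minus strand for Slc1a3 and chr3:87970843-87971092, plus strand for Nes. The silent pair lie at chr17:37023399-37023648, minus strand for Mog (a myelin protein of oligodendrocytes) and chr7:45163671-45163920, plus strand for Slc17a7 (the vesicular glutamate transporter of excitatory neurons). Ckb, the most abundant gene of the cells, held 16 CpG, and Nes held 15. Their ratios of observed to expected CpG were 0.669 and 0.694. Fabp7 held 4 (ratio 0.214) and Slc1a3 held 2 (0.160), both fewer than Slc17a7 with 9 (0.408), and Slc1a3 as few as Mog with 2 (0.147). The letters TATAAA started 28 bases before the start site in Ckb. Slc1a3 held them on the opposite strand, in a match that begins 161 bases before its start site, and the windows of Fabp7, Nes, Mog and Slc17a7 held them on neither strand. CCAAT, read on both strands, occurred 2 times in Ckb, 2 times in Fabp7, 3 times in Slc1a3 and in none of the windows of Nes, Mog and Slc17a7. GENCODE places the first start of Fabp7 and of Nes inside these windows, by the coordinates given.

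Of 21710 protein-coding genes, 16234 had such a RefSeq window. The ratio of observed to expected CpG was above 0.6 in 7.69% of the 4122 genes at 0, in 24.9% of those above 0 and up to 1 TPM, in 59.8% of those from 1 to 10 TPM, in 74.6% from 10 to 100 TPM and in 79.5% of the 1583 above 100 TPM, against 46.7% of all. TATAAA on either strand was in 25.8% of the windows of genes at 0, 12.6% of those above 0 and up to 1 TPM and 5.04% to 6.38% of the higher bands, against 12.0% of all. CCAAT varied little, from 32.7% to 40.3% across the bands with 36.0% of all. GGGCGG, which itself holds a CpG, was in 13.1% of the windows of genes at 0 and 61.7% of those above 100 TPM, against 44.2% of all. A match of letters is a description and does not show that a factor binds there.

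**Figure D1:**
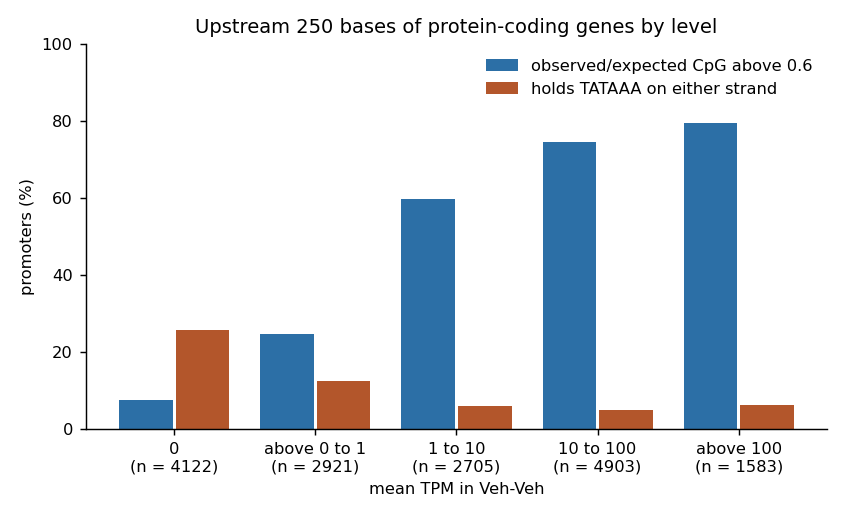
Share of protein-coding genes, by mean TPM band in Veh-Veh (x axis, with the number of genes), whose 250 upstream bases have an observed to expected CpG ratio above 0.6 (blue) or hold TATAAA on either strand (orange), in percent. The CpG-rich share goes from 7.69% at 0 TPM to 79.5% above 100 TPM.

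Transcripts of energy supply, protein turnover and the cytoskeleton headed the order of levels. Ckb, whose product buffers ATP through phosphocreatine, had 11979.8, 12633 and 10969 TPM, 11861 ± 838 (SD, n = 3), more than any other gene and wholly above the next. The polyubiquitin gene Ubb followed at 5455 ± 311 TPM. Olig1, a transcription factor best known from the oligodendrocyte lineage, stood at 5305, 5162 and 4844 TPM, 5104 ± 236, in a range that overlapped that of Ubb. The mitochondrial ADP/ATP carrier Slc25a5 was at 4659 ± 222 TPM, the secreted IGF binding protein Igfbp2 at 4655 ± 346, and Fabp7 at 4651 ± 83.0. These 3 could not be ordered, since their libraries overlapped, and the first and the second also reached into the range of Olig1.

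The cytoskeleton was represented among the 20 highest genes by the tubulin Tuba1a (4410.1 ± 153 TPM), the actin monomer-binding peptide Tmsb4x (3706 ± 183) and the actin Actg1 (3411 ± 170.4). Protein synthesis and folding were represented by the elongation factor Eef1a1 (4014 ± 13.9), the translation factor Eif5a (2364 ± 91.8) and the chaperones Hsp90ab1 (2619.6 ± 21.2) and Hspa8 (2537 ± 29.96). The glycolytic enzymes Pkm (2604 ± 44.3) and Eno1 (2546 ± 142), the iron store protein Ftl1 (3098 ± 142), the calcium sensor Calm2 (3071 ± 109) and the galactose-binding lectin Lgals1 (2695 ± 307), also secreted by neural stem cells, were on the list with Gm10123 (2744 ± 116), which is annotated as a processed pseudogene. The 20 together took 7.94% of all TPM, the 100 highest 19.8% and the 1000 highest 55.7%. In all 3 libraries 92 genes reached 1000 TPM and 2035 reached 100 TPM. Ubb, the tubulins, actins, Eef1a1 and Gm10123 have near-identical copies elsewhere in the genome, so their reads may have been divided or lost in counting. By the length of the longest transcript, 15 of these 20 remained among the 20 highest and Ckb stayed at the head.

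Genes of NSCs and radial glia were detected as a group. Of 38 on that list, 34 were detected (51.9% of all protein-coding genes were), 3 were traces and 1 was at 0. The extracellular matrix protein tenascin C, Tnc, made by radial glia, led with 1027, 879.6 and 1146 TPM, followed by Pea15a, a small phosphoprotein of glia, with 1004, 951 and 1094. Bcan, which encodes the brain proteoglycan brevican, was at 800.4 ± 34.7, and the membrane protein Gpm6b at 613 ± 21.5. Tnc and Pea15a overlapped and so cannot be ordered. The endothelin receptor Ednrb (350.0 ± 17.9), the receptor phosphatase Ptprz1 (254 ± 36.7) and Sox9 (253 ± 16.7), a factor that sets up glial and stem cell identity, were also above 100 TPM in every library. At the other end were Hes5 (3.55 ± 0.797), a target of Notch signalling, the RNA-binding protein Msi1 (1.17 ± 0.150), which is often used as a stem cell mark, and Prom1 (0.485 ± 0.654), the prominin of some stem cells. Id4, an inhibitor of basic helix-loop-helix factors that holds DG stem cells in quiescence, had no read in the 3 libraries, which at 3 reads over the 3 allows up to 0.0576 TPM.

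Of 20 astrocyte markers, 17 were detected, 2 were traces and Gjb6, the astrocyte connexin 30, was at 0 (up to 0.0828 TPM). The membrane protein of astrocyte endfeet Mlc1 stood at 1044, 1012 and 1029 TPM, the lipid enzyme Acsbg1 at 909.6, 869 and 861, the aldolase of astrocytes Aldoc at 402, 397 and 406 and the secreted Sparcl1 at 186, 171 and 184. Gfap, the glial filament, had 1.28, 1.599 and 1.53 TPM, and Vim exceeded it 747 ± 107 times (SD, n = 3). Gfap was also on the list of NSCs and radial glia, and the study used its protein among the marks of NSCs in tissue. The water channel Aqp4 was a trace at 0.138 ± 0.179 TPM, the glutamate transporter Slc1a2 was at 5.21 ± 0.871, the potassium channel Kcnj10 at 5.35 ± 0.698 and the neurotensin receptor Ntsr2 at 2.73 ± 2.49. Gja1, the main astrocyte connexin, was at 69.3 ± 5.99 TPM, and the enzyme Glul, which turns glutamate to glutamine, at 74.1 ± 4.601.

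On the oligodendrocyte list 7 of 20 genes were detected, 11 were traces and 2 were at 0. Olig1 was among the 3 highest genes of the cells and its neighbour Olig2 had 133, 145 and 120.1, a ratio of 38.6 ± 2.6 (SD, n = 3). Cnp, an enzyme of myelin that is also made outside it, was at 137 ± 10.1, and the proteoglycan Cspg4 (NG2) at 30.5 ± 2.93. The other detected members were Bcas1 (22.6 ± 1.84 TPM), of early myelinating cells, the transcription factor Nkx2-2 (5.64 ± 0.959) and Ugt8a (4.12 ± 0.935), which makes a myelin lipid. The factor and the receptor that define committed precursors were near or below the threshold, with Sox10 at 0, 0.457 and 0 TPM and the PDGF receptor Pdgfra at 1.39, 0.162 and 0.764. Of the myelin genes, Mbp was at 0.00942 ± 0.0163 TPM and Mag at 0.0952 ± 0.165, and Mog had no read (up to 0.130 TPM). Gpr17, of newly formed oligodendrocytes, was also at 0 (up to 0.0426 TPM).

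Of 24 genes of intermediate progenitors and neuroblasts 12 were detected, a share near the 51.9% of all protein-coding genes, led by the growth cone protein Gap43 (173, 153 and 153 TPM), the adhesion molecule Ncam1 (119.9, 132 and 129), the factor Sox11 (79.1, 88.6 and 107) and the collapsin response protein Dpysl3 (79.4, 79.5 and 70.2), all of which other immature cells also make. Dcx (doublecortin) had 0, 0.294 and 0 TPM and Stmn2 0, 0 and 0.256, while the proneural factor Neurod1 was at 1.253 ± 0.104 and Eomes (Tbr2), of intermediate progenitors, at 1.20 ± 0.681. Prox1, the factor of granule neuron identity, was detected at 10.2, 7.65 and 11.9 TPM. Neurog1, Neurod2, Neurod4, Neurod6, Tbr1 and Nhlh1, all transcription factors of neuronal differentiation, had no read. Of 21 genes of mature neurons 7 were detected, with Map2, which encodes a microtubule protein of dendrites, at 155 ± 14.2 TPM and the calmodulin-binding Nrgn at 21.8 ± 2.50. The NeuN gene Rbfox3 was a trace (0.866 ± 0.487), and Slc17a7, Slc17a6, Slc32a1, Nefl, Sst and Vip, which carry or mark excitatory and inhibitory transmission and the axon, were at 0.

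Other cell types of the hippocampus left almost no transcripts. Of 16 microglia and macrophage genes 15 were matched and 10 of these were at 0, which were Csf1r, Cx3cr1, Tmem119, Aif1, Tyrobp, C1qa, C1qb, Trem2, Fcrls and Mrc1, and the list summed to 4.03 to 7.01 TPM over the libraries. Cd68 (1.23, 2.40 and 4.76 TPM) and P2ry12 (4.01, 1.28 and 1.97) were the 2 above the threshold. Of 12 endothelial genes none was detected and Cldn5 and Cdh5, of the tight and adherens junctions of vessels, were at 0, with a sum of 3.92 to 5.29 TPM. Of 14 mural and fibroblast genes Notch3 (10.2 ± 2.30) and Acta2 (2.10 ± 0.814) were detected and Pdgfrb, the pericyte receptor, and Abcc9 were at 0, with a sum of 10.5 to 16.9. Foxj1, which drives motile cilia in ependymal cells, stood out on its list at 31.8, 37.0 and 35.9 TPM, with the axonemal Rsph1 at 5.87 ± 1.11 and Cfap126 at 1.23 ± 0.0645, while Ttr, the carrier made by choroid plexus, had no read. Of 10 pluripotency genes only Klf4 (5.35 ± 1.31) was detected. Zfp42, Lin28a, Lin28b, Dppa3, Dppa5a and Tdgf1 were at 0, and Pou5f1 was at 0.0355 ± 0.0614.

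**Figure D2:**
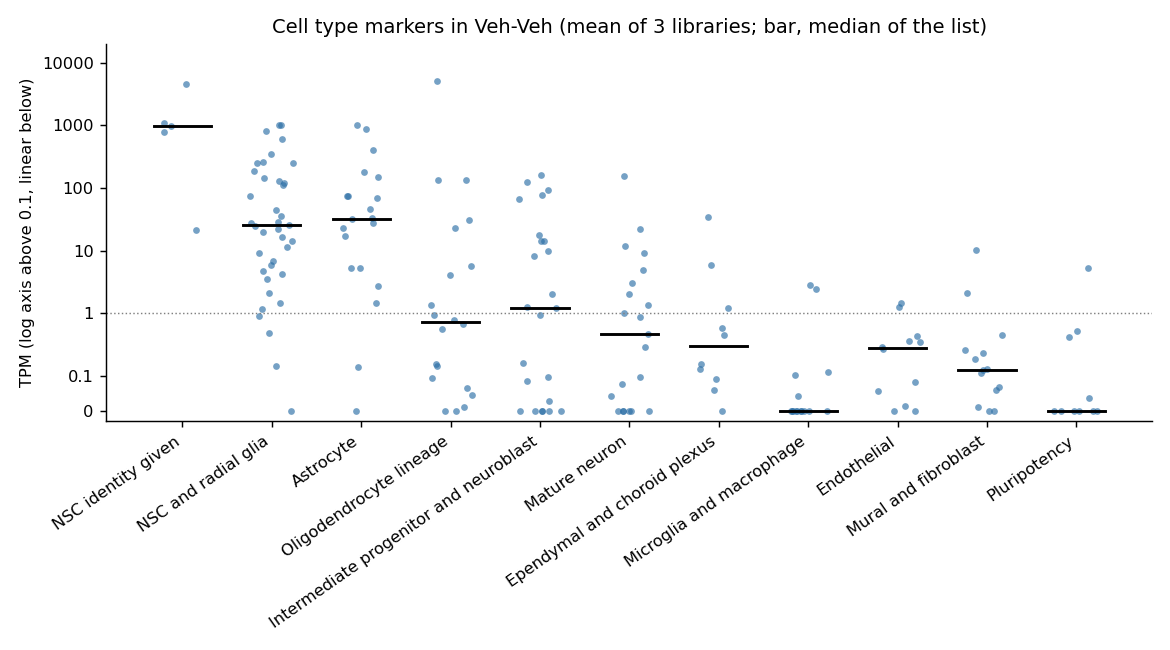
Mean TPM over the 3 Veh-Veh libraries (y axis, logarithmic above 0.1 and linear below) of each matched gene of 11 cell type lists, 1 point a gene, with a bar at the median of the list and a dotted line at 1 TPM. Points of the NSC, radial glia and astrocyte lists lie mostly above the line, those of microglia, endothelial and mural lists mostly below it, and Olig1 is the point at 5104 TPM in the oligodendrocyte list.

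Transcription factors of the dorsal telencephalon, the origin of the hippocampus, were detected at low levels, and few of other regions were. Of 13 dorsal factors 9 were detected. Zbtb20, required for hippocampal fate, had 29.0, 29.7 and 28.1 TPM, the cortical selector Lhx2 28.4, 23.2 and 21.3, Otx1 17.0, 18.1 and 11.6 and Emx2 7.45, 9.45 and 10.6. Emx1 had no read (up to 0.101 TPM). None of 11 ventral factors was detected, and Dlx5, Dlx6, Gsx2, Nkx2-1, Lhx8 and Six3 were at 0. Of 22 genes of midbrain, hindbrain and cord 5 were detected, among them Hoxa5 (13.2, 15.7 and 15.8 TPM), Gbx2 (10.98, 12.5 and 14.1), En1 (2.43 ± 0.8002) and En2 (2.23 ± 1.01). Gbx2 and the engrailed genes pattern the midbrain and anterior hindbrain, and Hox genes the levels behind it. A further 14 of these genes were at 0, among them Hoxa2, Hoxb2, Hoxb3, Hoxc6, Foxa2 and Pax2. The 0 of Hoxd3 and Hoxd4 is uncertain, since over 50% of their exon bases lie in exons of another gene on the same strand. For Gbx2 the shared part was 0% on the same strand but 43.5% on either strand. Since the kit does not mark strand, its level may hold reads of an antisense partner.

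The cell cycle was fully represented. All 24 genes of G1/S and replication and all 22 of mitosis were detected, and 12 and 14 of them reached 100 TPM in every library, against 8.61% of all protein-coding genes. Rrm2, the subunit that sets the rate of deoxynucleotide supply, had 914, 926 and 957 TPM, Cdk4 806, 813 and 781, Ccnd2 630.0, 648 and 639.6 and Ccnd1 637, 577 and 582. The cyclins D2 and D1, partners of Cdk4 in G1, were close, with a ratio of 1.07 ± 0.072 (SD, n = 3). Cdk6, the other partner, was low at 3.16 ± 1.30 TPM, as were Rb1 (6.40 ± 0.714) and E2f1 (7.69 ± 1.42), which cyclin-dependent kinases act on and release. Of the mitotic genes the anaphase activator Cdc20 led with 704, 700.2 and 669 TPM, then the kinase Plk1 with 394 ± 16.9 and cyclin B1, Ccnb1, with 386 ± 18.6. The proliferation mark Mki67 was at 132 ± 14.1 TPM. The lowest of the mitotic list, Kif23 (32.2 ± 3.02) and Cenpf (36.0 ± 0.903), still exceeded the median TPM of all detected genes.

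Genes of a list of quiescence genes and CDK inhibitors were present beside them, with 20 of 21 detected. The list also holds genes common in glia, among them Apoe, Clu and Mt3. Cdkn1a, which encodes the CDK inhibitor p21, had 756, 729.5 and 697 TPM, 82.8 ± 12.2 times (SD, n = 3) the level of Cdkn1b, which encodes p27. The INK4 inhibitors Cdkn2d (114 ± 9.32) and Cdkn2c (101 ± 6.76) were near 100 TPM, Cdkn2a was at 32.02 ± 1.79 and Cdkn1c (p57), which holds adult stem cells in quiescence, at 4.15 ± 1.01. The metallothionein Mt3 had 565, 551 and 476 TPM and Txnip, a thioredoxin-binding protein, 1.85, 5.96 and 3.68, the lowest of the list above 0. Among 18 immediate early genes 12 were detected. Jun was at 269 ± 10.4 TPM, Egr1 at 169 ± 3.22 and Ier2 at 109 ± 10.5, whereas Fos was at 15.1 ± 3.75, Egr3 at 0.0181 ± 0.0313 and the neuronal Npas4 at 0.

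Of 29 receptor tyrosine kinases 14 were detected. The collagen receptor Ddr1 led with 298, 301 and 299.7 TPM, followed by the receptors of the growth factors in the medium, Fgfr1 with 122, 109.7 and 130.4 and Egfr with 74.1, 70.7 and 75.9. Ntrk2, the BDNF receptor TrkB, had 65.2, 57.8 and 67.3 TPM and overlapped Egfr at no library. Fgfr3 (28.0 ± 4.43) and Erbb2 (28.0 ± 4.25) overlapped, and the insulin and IGF receptors Insr (10.3 ± 1.75) and Igf1r (12.7 ± 1.97) were near 10 TPM. Fgfr4, Pdgfrb and Csf1r were at 0. Among 40 growth factor ligands 20 were detected, and the heparin-binding pleiotrophin Ptn, with 940.4, 894 and 967 TPM, exceeded all the others. Gas6 (134 ± 8.08) and Pros1 (123 ± 19.1), ligands of the receptors Tyro3 (24.0 ± 2.01), Axl (21.5 ± 2.02) and Mertk (8.24 ± 1.33), came next and overlapped each other. The ligands supplied in the medium were traces in the cells' own RNA, Egf at 0.775 ± 0.398 TPM and Fgf2 at 0.663 ± 0.252, and Mdk, the relative of Ptn, was at 0.216 ± 0.0654. Fgf8, Fgf10, Fgf18, Gdnf and Il6 had no read.

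The Notch pathway, which keeps neighbouring progenitors from differentiating together, had 20 of 26 genes detected. Hes6, an antagonist of Hes1, led with 207, 233 and 208 TPM, followed by the noncanonical ligand Dner with 108, 99.9 and 126 and the fringe glycosyltransferases Lfng (96.7 ± 8.24) and Rfng (80.1 ± 5.20). The ligand Dll1 had 39.2, 40.3 and 45.8 TPM and the receptors Notch1 35.3, 33.3 and 40.1 and Notch2 22.8, 18.3 and 17.8. Of the classical targets Hes1 was at 25.2 ± 2.22, Hey1 at 10.9 ± 1.02 and Hes5 at 3.55 ± 0.797. Jag2 and Dll4 were traces, and Heyl was at 0.

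For BMP and TGF-beta signalling, which in the DG favours quiescence, 24 of 37 genes were detected. Id3, a direct target of BMP receptors, had 422, 445 and 415 TPM and exceeded Id1 12.3 ± 0.90 times (SD, n = 3), with Id2 at 72.8 ± 4.84. Bmp7 was the highest ligand with 96.1, 88.2 and 100.1 TPM, and the receptors Bmpr1a (18.2 ± 2.01), Bmpr1b (11.9 ± 2.67) and Bmpr2 (10.1 ± 1.48) and the mediators Smad5 (60.9 ± 4.87) and Smad1 (42.2 ± 2.41) were detected. The ligands Bmp4 and Tgfb1, the inhibitory Smad6 and the antagonist Grem1 were at 0, with limits of 0.0985, 0.0439, 0.0691 and 0.0534 TPM. Tgfb2 (33.6 ± 4.86) was the main TGF-beta transcript and Tgfb3 was at 2.14 ± 1.01, beside the receptors Tgfbr2 (31.2 ± 1.19) and Tgfbr1 (25.1 ± 3.17). Noggin (Nog, 1.52 ± 0.589) and chordin (Chrd, 1.49 ± 0.364), the antagonists of BMP known from the DG niche, were near the threshold.

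Of 45 Wnt genes 26 were detected, with the receptor Fzd9 highest at 431, 385 and 402 TPM. Fzd1 followed among receptors at 149.7, 115 and 149.8, and beta-catenin, Ctnnb1, was at 348 ± 11.5. The ligands present were Wnt5a (98.1, 86.5 and 101 TPM), Wnt7a (75.3, 64.7 and 72.2), Wnt7b (42.5 ± 1.32) and Wnt5b (11.3 ± 2.18), whereas Wnt1, Wnt8b and Wnt10a and the R-spondin Rspo2 were at 0 and Wnt3a, made by hippocampal astrocytes and the cortical hem, was a trace (0.260 ± 0.450). Axin2, a target of canonical signalling, stood at 4.58 ± 0.552. Of 14 hedgehog genes 10 were detected. The coreceptor Gas1 had 226, 154 and 149.9 TPM, with replicate 1 above the other two, and the transducer Smo 107, 116 and 116. The target Gli1 was at 0.0386, 0 and 0 TPM and the ligand Shh at 0.275 ± 0.251, beside Gli3, which acts mainly as a repressor, at 10.97 ± 0.953 and Ptch1 at 5.97 ± 1.19.

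Among transporters that take up glutamate, Slc1a3 held nearly all of the RNA. Its TPM was 155 ± 28.4 times (SD, n = 3) that of Slc1a2, which encodes EAAT2 and had 6.21, 4.603 and 4.83 TPM. By the longest transcripts this ratio was 258, so its size but not its direction depends on the lengths. Slc1a6 (EAAT4) was at 2.87, 4.21 and 4.67 TPM, Slc1a1 (EAAT3) at 1.17, 1.13 and 1.01 and Slc1a7 (EAAT5) at 0 (up to 0.0659 TPM). Slc1a6 and Slc1a2 overlapped. The cystine/glutamate exchanger Slc7a11, which exports glutamate, had 4.85, 6.45 and 6.39 TPM. Of the vesicular carriers Slc17a8 was at 1.20 ± 0.234, and Slc17a6 and Slc17a7 were at 0.

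Of 18 ionotropic subunits 9 were detected and none reached 100 TPM. The AMPA subunits Gria3 (43.4, 50.5 and 52.8 TPM), Gria4 (49.2, 41.5 and 54.2) and Gria2 (36.6, 34.5 and 39.0), the last of which makes the channel impermeable to calcium, headed the list and Gria3 and Gria4 overlapped. Gria1, common in mature neurons, was at 1.34, 1.08 and 0.594. The NMDA subunit Grin3a had 24.6, 26.3 and 33.3 TPM and Grin2a 4.87, 4.67 and 5.35, but Grin1, the subunit that every classical NMDA receptor needs, was at 0.696, 0.695 and 0.912 and below the threshold in all 3 libraries. Of 8 metabotropic receptors the group I receptor Grm5, with 77.6, 79.8 and 97.4 TPM, and the group II receptor Grm3, with 19.2, 16.5 and 16.0, were detected, and Grm2 and Grm6 were at 0. Slc1a3 exceeded Grm5 9.36 ± 0.51 times (SD, n = 3).

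Among 19 genes of GABA receptors and transporters 8 were detected. The transporter Slc6a11 (GAT-3) had 81.2, 64.0 and 84.1 TPM. The receptor subunits present included Gabrg1 (78.7, 69.2 and 94.9 TPM), Gabra4 (20.3 ± 3.42) and Gabra2 (4.55 ± 1.01), while Gabra6 and Gabrd were at 0. Purine receptors numbered 6 detected of 18, with adenosine receptor Adora1 at 51.9, 56.1 and 64.7, the ATP-gated channel P2rx7 at 53.3, 44.0 and 51.0, Adora2b at 43.1 ± 5.87 and P2ry1, which acts on stem cell division, at 22.3 ± 1.62. Of 44 receptors of monoamines, acetylcholine, opioids and cannabinoids only 10 were detected and 13 were at 0. Chrm3 (24.8, 21.5 and 25.7 TPM) and Hrh1 (25.6, 23.5 and 19.4) led, with Htr3a at 9.95 ± 2.48, while Htr1a, Drd2, Drd5, Oprd1 and Oprk1 had no read.

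**Figure D3:**
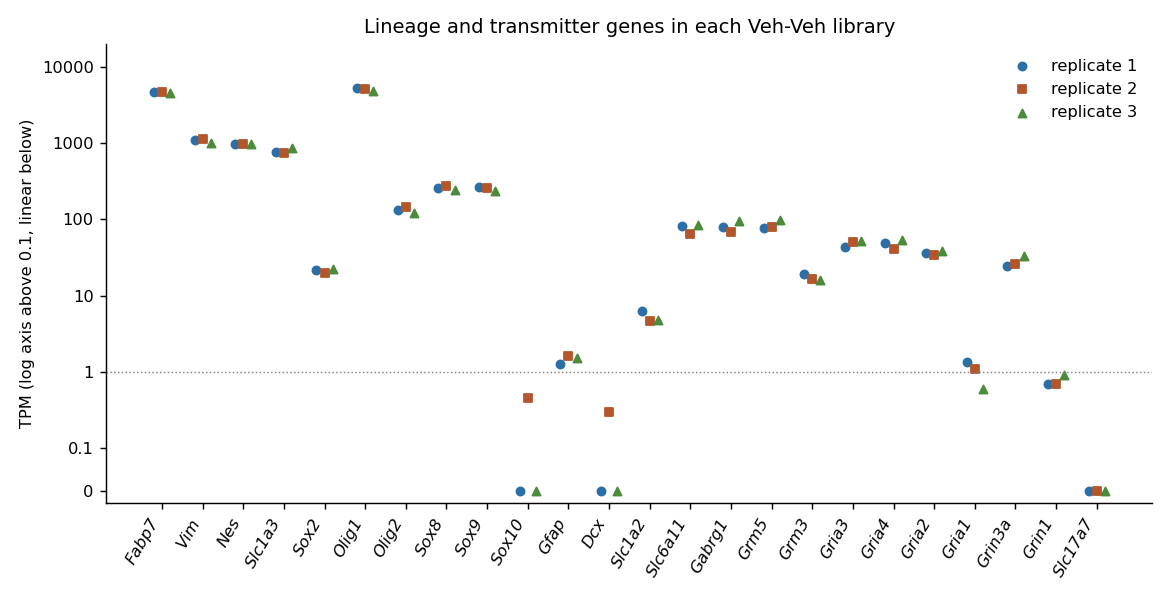
TPM (y axis, logarithmic above 0.1 and linear below) of 24 lineage and transmitter genes in each Veh-Veh library, with circles, squares and triangles for replicates 1, 2 and 3 and a dotted line at 1 TPM. Replicates lie close together except for genes near or below 1 TPM, and Slc1a3 lies well above Slc1a2 and every glutamate receptor.

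Nuclear receptors were detected in 14 of 26 cases, with Nr1h2 (LXR beta) at 60.3, 45.8 and 64.6 TPM, Rxrb at 32.6 ± 2.02, Esrra at 29.0 ± 4.27 and the thyroid hormone receptor Thra at 28.7 ± 2.08. The glucocorticoid receptor Nr3c1 had 23.8, 26.2 and 29.4 TPM and the mineralocorticoid receptor Nr3c2 1.22, 1.80 and 1.63. Estrogen receptors Esr1 (0.0409 ± 0.0708) and Esr2 (0.0191 ± 0.0331) and the progesterone receptor Pgr (0.0596 ± 0.0292) were traces. Of 18 chemokine and cytokine receptors 11 were detected, led by Tnfrsf1a (107, 102 and 109 TPM), Ifnar1 (89.9 ± 1.82), Ifngr1 (69.0 ± 9.15) and Ifngr2 (62.8 ± 5.25), so that both chains of the interferon gamma receptor were present. The LIF receptor chains Lifr (38.8 ± 6.09) and Il6st (36.4 ± 2.44) were also present, whereas Cx3cr1, Ccr2 and Tnfrsf1b, mostly of immune cells, were at 0.

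Of 16 carriers of sugars and monocarboxylates 10 were detected. The glucose transporter Slc2a1 had 40.4, 38.9 and 39.0 TPM and Slc16a1, which carries lactate and pyruvate, 51.1, 57.3 and 50.9. Slc2a3, the glucose transporter of neurons, was at 4.17 ± 0.560, and Slc16a3, which exports lactate from glycolytic cells, was a trace at 0.558 ± 0.454. Amino acid carriers were more abundant, with 16 of 21 detected. The heavy and the light chain of the large neutral amino acid exchanger, Slc3a2 (484, 554 and 469 TPM) and Slc7a5 (454, 429 and 454), were the highest, then the neutral exchanger Slc1a4 (94.1 ± 4.91) and the glutamine carrier Slc38a3 (70.5 ± 3.68). Slc38a4 and Slc38a5 were at 0. Of 17 ABC proteins 14 were detected, headed by the ribosome recycling factor Abce1 (179 ± 20.3) and Abcf1 (159 ± 8.97), neither of which is a transporter, and the side population transporter Abcg2 was at 17.9 ± 3.48.

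Potassium channels and gap junctions gave 11 detected of 18, with the inward rectifier Kcnj16 at 128, 112 and 158 TPM, Gja1 at 69.7, 63.1 and 75.1, Kcnc1 at 64.6 ± 4.75 and the pannexin Panx1 at 40.6 ± 2.07. The partner of Kcnj16 in glia, Kcnj10, was far lower at 5.21, 4.73 and 6.11 TPM. Voltage-gated sodium and calcium channels, the mark of excitable cells, were nearly absent. Of 14, Cacna1h (4.88, 8.00 and 8.77 TPM), Scn8a (1.37, 1.28 and 1.502) and Cacna1b (1.14, 1.33 and 1.52) were detected, Scn1a and Cacna1i were at 0, and the whole list summed to 11.01 to 16.9 TPM.

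Energy metabolism was represented throughout. All 24 genes of the TCA cycle and all 22 nuclear genes of oxidative phosphorylation were detected, with medians of 222 and 442 TPM and with 22 and 20 of them at 100 TPM or more in every library. Malate dehydrogenase Mdh2 had 899, 939 and 868 TPM, the succinate dehydrogenase subunit Sdhd 786, 794 and 783, and the ATP synthase subunits Atp5b 2225, 2177 and 2303 and Atp5a1 1739.8, 1760.2 and 1733. The lowest of the oxidative list was Ndufs1 of complex I, at 67.8 ± 10.2. Of the 37 genes encoded by the mitochondrial genome itself 9 were detected, and together they took 0.00181% to 0.00194% of the reads. The study removed reads that aligned to mitochondrial DNA before it counted, so these values say nothing of the cells.

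In glycolysis 19 of 25 matched genes were detected, and the isozymes were sharply ordered. Pkm was at 2641, 2614 and 2555 TPM, Eno1 at 2582, 2666 and 2389, lactate dehydrogenase A, Ldha, at 2145, 2162 and 2126 and Pgam1 at 807 ± 34.7. Pkm and Eno1 overlapped, and by the longest transcript Eno1 was the higher. Ldhb, the isozyme of oxidative tissue, had 749, 853 and 795 TPM, so Ldha exceeded it 2.69 ± 0.17 times (SD, n = 3). Hexokinase Hk1 was at 66.9 ± 4.86 and Hk2 at 12.5 ± 2.41, while isozymes of other tissues, among them Ldhc of testis (0.0505 ± 0.0874) and Eno2 of neurons (0.900 ± 0.504), were traces. Gapdh, at 105, 108 and 104 TPM, has many near-identical pseudogenes that can take its reads, so its level is uncertain. Of 8 pentose phosphate genes 7 were detected, led by Taldo1 (335 ± 5.13), Tkt (196 ± 3.93) and G6pdx (173 ± 5.14), the enzyme that feeds the pathway.

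Lipid synthesis was at high levels. Of 16 fatty acid synthesis genes 15 were detected and 10 reached 100 TPM in every library. The stearoyl-CoA desaturase Scd2 led with 1374, 1164 and 1485 TPM, 7.69 ± 0.29 times (SD, n = 3) the level of Scd1, followed by Fads2 (434 ± 13.3), the citrate lyase Acly (423, 372 and 451) and Fads1 (322 ± 27.0). Fasn, the fatty acid synthase itself, had 325, 286 and 333 TPM, while Acaca, the carboxylase that supplies it, was lower at 15.8, 16.6 and 18.2 and Acacb was a trace at 0.534 ± 0.575. All 22 cholesterol synthesis genes were detected, with Hmgcs1 at 604, 573 and 675 TPM, Sqle at 514, 497 and 541, Cyp51 at 433, 413 and 453 and the sterol sensor partner Insig1 at 303 ± 29.7. Fdps was the lowest at 8.77 ± 0.461, and 26.7% of its exon bases lie in exons of another gene on the same strand, which makes its level uncertain. Fatty acid oxidation had 16 of 18 genes detected at a median of 56.1 TPM, with Acadl at 356 ± 8.34 and Etfa at 343 ± 17.0. Cpt1a, which admits fatty acids to mitochondria, had 18.4, 12.5 and 20.5 TPM and the brain form Cpt1c 56.4, 44.7 and 55.4.

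Of 16 enzymes of glutamate and glutamine 14 were detected. Asparagine synthetase Asns had 357, 423 and 337 TPM, the mitochondrial alanine transaminase Gpt2 346 ± 0.680 (SD, n = 3), the aspartate transaminase Got2 207 ± 1.18 and Oat, which links ornithine and proline, 184, 206 and 210.3. Gpt2 and Got2 were almost level between libraries. Glutamate dehydrogenase Glud1 was at 161 ± 8.00 TPM and the glutaminase Gls2 (1.73 ± 0.602) was close to the threshold. Gad1, which makes GABA, was at 2.02 ± 0.668 and Gad2 at 0.0407 ± 0.0705. All 17 genes of serine, glycine and one-carbon metabolism were detected, with the entry enzyme of serine synthesis Phgdh at 1333, 1377 and 1243 TPM, Psat1 at 469.9, 508 and 486, Shmt2 at 282 ± 24.5 and Mthfd1 at 226 ± 6.24.

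**Figure D4:**
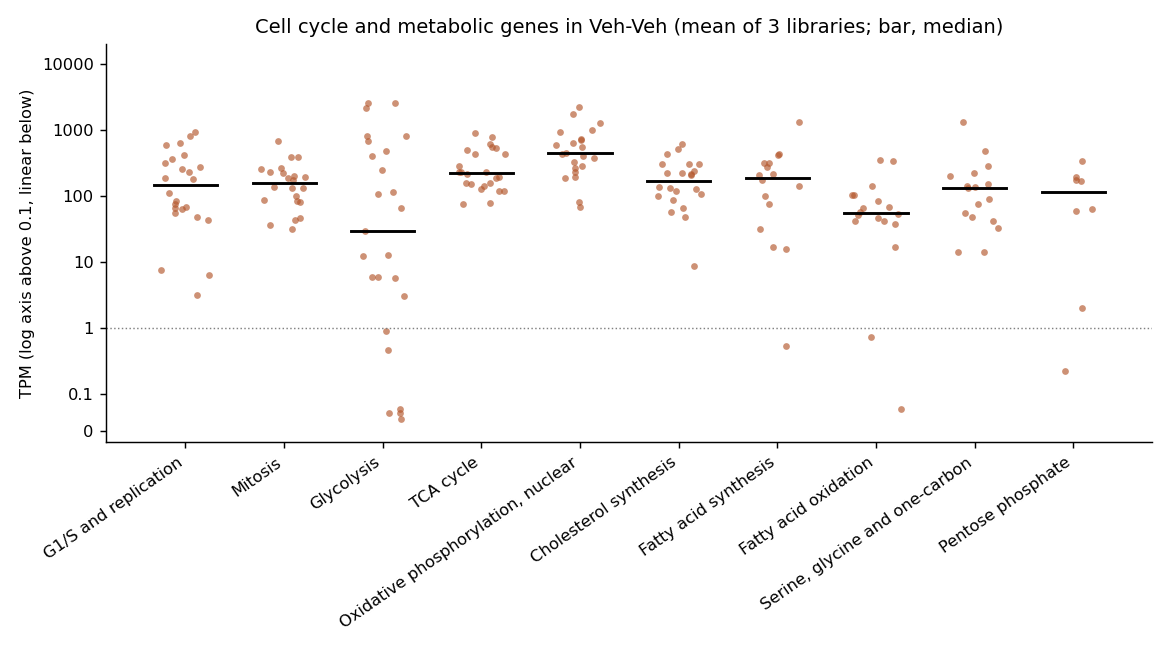
Mean TPM over the 3 Veh-Veh libraries (y axis, logarithmic above 0.1 and linear below) of each matched gene of 10 cell cycle and metabolic lists, 1 point a gene, with a bar at the median and a dotted line at 1 TPM. All points of the cell cycle, TCA cycle, oxidative phosphorylation, cholesterol and one-carbon lists lie above the line, while glycolysis has points on both sides of it and reaches 2604 TPM (Pkm).

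Extracellular matrix genes were mostly detected, 29 of 34. Besides Tnc and Bcan, Sparc, a collagen-binding glycoprotein, had 696, 694 and 673 TPM, the glypican Gpc4 252, 265 and 262, the laminin chain Lamc1 195, 180.1 and 203 and neurocan, Ncan, 153 ± 8.12. Of the other matrix genes known from perineuronal nets, to which Bcan and Ncan also belong, Hapln1 was at 0.0270 ± 0.0468, Acan at 0.176 ± 0.306 and Tnr at 2.87 ± 0.659. Fibronectin, Fn1, was at 14.8 ± 1.71. Of 19 integrins 10 were detected. The shared beta chain Itgb1 had 1007, 976 and 1205 TPM, 17.3 ± 2.6 times (SD, n = 3) the highest alpha chain Itgav, which had 63.2, 48.3 and 76.8. Itga6 (28.5 ± 1.92), the laminin receptor chain, and Itgb8 (28.6 ± 3.22) overlapped, and Itgb6 was at 0.

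Within families the levels of the members differed widely. Of 9 fatty acid binding proteins Fabp7 exceeded Fabp5, which had 516, 523 and 495 TPM, 9.10 ± 0.14 times (SD, n = 3), Fabp3 was at 2.77 ± 1.00, and Fabp1, Fabp2, Fabp4 and Fabp12 had no read. Fabp9 was also at 0, but 53.0% of its exon bases are shared with another gene. Of 19 Sox genes 12 were detected, with Sox8 and Sox9 highest and Sox11 next at 91.6 ± 14.3 TPM. Sox8 (258, 275 and 245 TPM) and Sox9 (266, 259.9 and 235), which belong to the same subgroup as the nearly absent Sox10, overlapped, and Sox9 exceeded Sox2 12.1 ± 1.4 times (SD, n = 3). Of the other SoxB1 factors, Sox3 was at 5.84 ± 1.11 and Sox1 at 2.07 ± 1.04. In the whole Sox list only Sox14 and Sox17 were at 0.

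The levels were closely shared by the 3 wells. Across genes, Pearson's r of log2(normalized count + 1) was 0.980 to 0.984 between pairs of libraries, which is a description, since genes are not independent replicates. Yet each pair differed by more than sampling noise, with a chi-square per gene of 8.16 to 11.2 where 1 would be counting error alone. That excess may be technical and does not show the wells to be independent cultures. They were treated as separate samples in the comparison of groups. Over the 14120 genes whose normalized counts averaged 10 or more the median coefficient of variation was 11.8%, against 5.14% from counting alone. For the 150 genes of highest count it was 4.31%, and for the 3840 genes with means from 10 to 100 it was 30.8%. For the 3596 genes in the count band next below the 150, the median was 6.54%, so the spread fell as the count rose. The median was 4.83% for the NSC identity genes, 4.49% for mitosis genes, 4.36% for cholesterol genes and 44.7% for purine receptors. These lists also differ in level. Whether their spread differs from that of other genes of like count was not tested. The detected genes of largest spread were the histone gene Hist1h2an, with normalized counts of 48.8, 5.30 and 5.26, the pseudogene Gm17907 with 4.35, 25.4 and 5.26, the sulfatase Arsg with 33.1, 177 and 47.4, C78197, annotated as an antisense RNA, with 81.8, 23.3 and 15.8 and the monoamine oxidase Maob with 21.8, 63.6 and 13.7. In each of these 1 replicate stood above the other two, replicate 1 for Hist1h2an and C78197 and replicate 2 for Gm17907, Arsg and Maob. Maob, which breaks down dopamine in glia, was low in all 3 at 2.62 ± 2.09 TPM.

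To ask where the untreated cells stood apart from the rest of the series, Veh-Veh was compared with the mean of the 3 other groups by limma on log2(normalized count + 1). The p-values weigh a difference against the spread between wells, and the labels do not say whether the wells came from separate cultures. Of the 14266 genes that averaged 10 counts or more, 43 passed an adjusted p of 0.05 (0.301%), of which 42 (0.294%) were lower in Veh-Veh and 1 (0.00701%) was higher. At an unadjusted p under 0.05 there were 1161. On recovered reads edgeR called 38 genes, all of them among the 43, and DESeq2 called 173. Leaving out Veh-Veh replicate 1 gave 27 genes, leaving out Veh-Veh replicate 2 gave 26, and the count became 72 when Veh-Glut replicate 1 was left out. None of the 5 NSC identity genes passed. Slc1a3 ranged from 746 to 862 TPM in Veh-Veh and from 721 to 881 over the other groups (log2 difference -0.04 ± 0.05 SE, adjusted p = 0.913), and Fabp7 from 4578 to 4741 against 3971 to 4760 (0.07 ± 0.05, adjusted p = 0.798). Olig1 had 4844 to 5305 TPM in Veh-Veh and 4346 to 4748 over the others, with no overlap, but its log2 difference of 0.18 ± 0.05 did not pass (adjusted p = 0.134).

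The gene that was higher was Rrm2, with normalized counts of 11440, 11700 and 11660 in Veh-Veh. Veh-Glut, at 10550 to 11190, lay between these and the groups given TFB-TBOA, at 8330 to 10220. Veh-Veh was above every other library (log2 difference 0.25 ± 0.05 SE, adjusted p = 0.0448). That call was lost under 9 of 20 other settings, among them the omission of any Veh-Veh replicate. The 5 lower genes of smallest adjusted p were Igfbp5, Ctgf, Gm12666, Gmpr and Ache. Igfbp5, a secreted IGF binding protein, had 444, 531 and 457 normalized counts in Veh-Veh, 439 to 468 in Veh-Glut and 1402 to 1775 in the groups given TFB-TBOA (log2 difference -1.16 ± 0.08 SE, adjusted p = 4.47e-06). Ctgf, a matricellular protein, had 217, 219.5 and 226 in Veh-Veh, 167 to 201 in Veh-Glut and 835 to 1052 with TFB-TBOA (-1.31 ± 0.10 SE, adjusted p = 8.30e-06). In both, Veh-Veh and Veh-Glut lay far below the libraries with TFB-TBOA, and the difference from the mean of the 3 groups came from the 2 groups with the inhibitor. The same held for Gmpr, a GMP reductase, with 663, 537 and 485 in Veh-Veh, 532 to 653 in Veh-Glut and 1222 to 1644 with TFB-TBOA (-0.91 ± 0.10 SE, adjusted p = 6.45e-04), and for Ache, acetylcholinesterase, with 114, 107 and 103, 114 to 197 and 376 to 585 (-1.50 ± 0.17 SE, adjusted p = 7.01e-04).

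Gm12666, an annotated protein-coding gene at chr4:92190744-92191749 on the minus strand, was different. It had 0.871, 2.12 and 1.05 normalized counts in Veh-Veh, of which replicate 1 and replicate 3 are 1 read each, and 17.5 to 32.7 in every library of the 3 other groups, with no overlap (log2 difference -3.56 ± 0.37 SE, adjusted p = 3.16e-04). At so few reads the size of this difference depends on the pseudocount, and it was -3.90 with 0.5 and -2.30 with 5. Cyp51, a sterol demethylase, was also below every other library, with 8637, 8317 and 8802 against 9522 to 12790 (-0.33 ± 0.04 SE, adjusted p = 0.0022), and its highest counts, 12030 to 12790, were those of Veh-Glut. In all, 15 of the 42 lower genes lay below all 9 other libraries. Of all 14266 genes tested, Veh-Veh lay below all 9 in 85 and above all 9 in 77. The 42 had already been picked for being lower, so their separation is no further result. Members of 6 of the 51 lists were called, 1 in each, namely Rrm2, Cyp51, Ctgf, Fgf1, Tgfbr2 and Htr3a. Fgf1, a growth factor, had 655, 724 and 647 normalized counts in Veh-Veh, 688 to 750 in Veh-Glut and 976 to 1251 with TFB-TBOA (-0.45 ± 0.09 SE, adjusted p = 0.0336). Tgfbr2 had 1197, 1163 and 1081 in Veh-Veh, 1053 to 1159 in Veh-Glut and 1584 to 1873 with TFB-TBOA (-0.38 ± 0.07 SE, adjusted p = 0.0174). For both genes Veh-Veh overlapped Veh-Glut, and the difference came from the groups with the inhibitor. The serotonin-gated channel Htr3a had 67.9, 115 and 96.8 against 126 to 232 in the other groups (-1.06 ± 0.18 SE, adjusted p = 0.0109). The Fgf1 call was lost under 6 of 20 other settings, that of Tgfbr2 under the 3 that left out a Veh-Veh replicate, and that of Htr3a without Veh-Veh replicate 1.

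**Figure D5:**
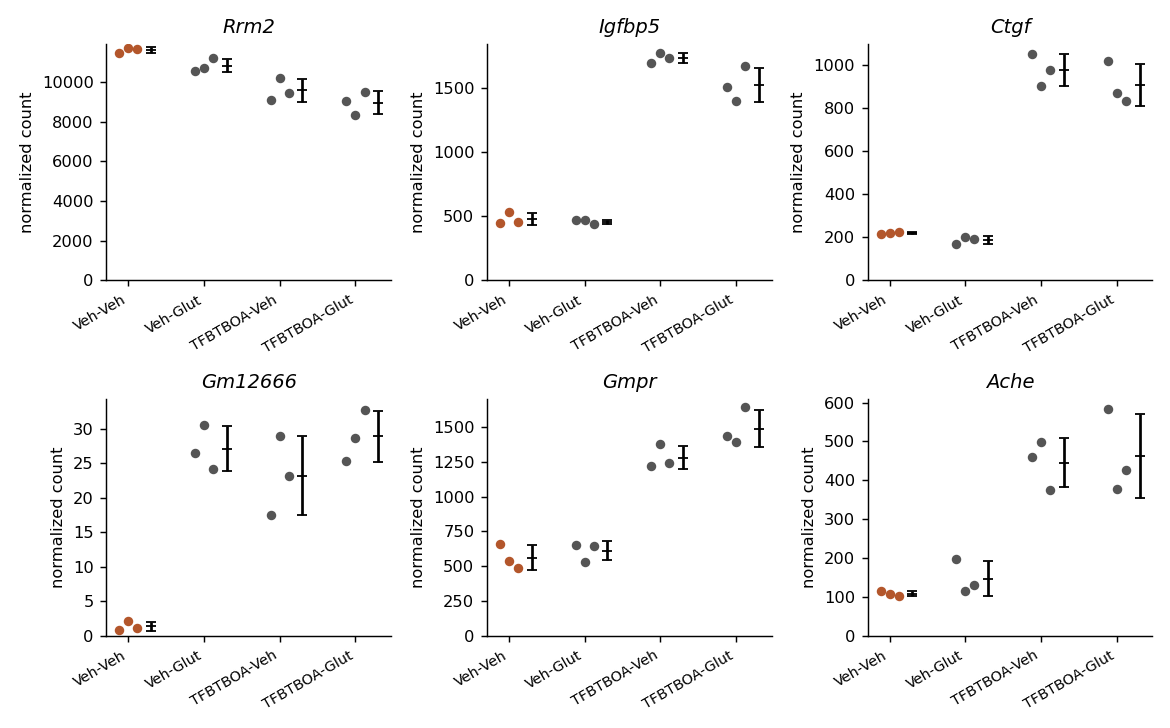
Normalized count (y axes, from 0) in each of the 3 libraries of the 4 groups for 6 genes past the threshold, with Veh-Veh points in orange, those of the other groups in grey and the mean and SD of each group in black beside them. Rrm2 is highest in Veh-Veh, Gm12666 is at 0.871 to 2.12 in Veh-Veh and at 17.5 or more elsewhere, and the other 4 are low in Veh-Veh and Veh-Glut.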

How the data were processed

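RNA was measured in 12 libraries of 4 groups of 3 wells (RIN at least 8, SMART-Seq HT kit). The authors trimmed the reads, removed those aligning to rRNA, mtDNA and PhiX, aligned the rest with HISAT2 2.0.6 and counted them over GENCODE M14 genes with featureCounts (Subread). The methods name GRCm38p4 and the submitters' processing notes GRCh38, and those notes also list CASAVA 1.8.2. The counting is described as stranded although the kit does not mark strand, so reads of a gene and an overlapping antisense partner cannot be told apart. The deposited values (unit: signal) are gene counts that the authors divided by a size factor per library. Dividing each column by the value of 1 read gave whole reads for 100% of values in all 12 libraries (within 0.05), 13064545 to 18372691 reads a library.

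TPM was computed with summed exon lengths of GENCODE M21 (GRCm38). Of 50600 entries 47518 matched by symbol and 366 by an older symbol, 183 shared a symbol and 2533 had no model. A count of 0 was read against a limit of 3 reads over the 3 libraries, which covers counting error only. Promoter windows came from RefSeq (GRCm38.p6). Veh-Veh was compared with the mean of the other groups by limma 3.58.1 on log2(normalized count + 1) over genes with a mean of at least 10, all 12 libraries in the fit, Benjamini-Hochberg threshold 0.05. The fold changes are on that log2 scale and understate those of low genes. edgeR 4.0.16 and DESeq2 1.42.0 on recovered reads, other pseudocounts, filters, scalings and lengths, and each replicate left out in turn were alternatives. The test was tested on simulated data. Work was done in R 4.3.3 and Python 3.11.15.

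The text names the 20 genes of highest TPM, the 5 given markers, up to 4 highest and 4 lowest or absent members of each list, the 5 detected genes of largest spread, up to 5 genes per direction with the lowest adjusted p and list members past the threshold. Other genes were named for their known role after their values were seen. The libraries and the 51 lists were chosen with earlier results of these data known. Some genes are not reported here.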

Additional observations from a re-analysis of the deposited data

How the results depend on the processing

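The number of genes detected stayed within 1.5 times of 13199 under every setting run, from 10262 at a threshold of 5 TPM to 14794 when only the mean had to pass, and lay between 13574 and 13651 when 1 replicate was left out. The 20 highest genes kept 15 members with the longest transcript as length and 20 of 20 under the other settings, with 20 to 20 when a replicate was left out. The log2 ratio of Nes to Slc1a3 became -0.57 with the longest transcript, which changes only the lengths. The median coefficient of variation of 11.8% became 27.0% without the filter on low values, which adds genes of few reads, and ranged from 8.91% to 10.5% without 1 replicate. The 43 genes that differed between Veh-Veh and the other groups were 41 to 47 under other pseudocounts, filters and TMM scaling, 38 by edgeR and 173 by DESeq2 (26 higher and 147 lower), and 26 to 72 without 1 replicate; the cause was not tested. With the replicate block the count was 72 (8 higher, 64 lower), and the genes named in the comparison as called all kept their call. Named genes that had not passed, such as Olig1, were not followed under the block. The numbers are not shown to pair the wells, since the deviations of 18 same-numbered pairs correlated by -0.043 to 0.084 and 7 of 12 libraries correlated best with a library of their own number. Other results, such as members detected per list and single genes, kept their call in 694 cases, moved in 90 and lost it in 19. With 3 wells a group and 14051705 to 17215581 reads, levels below 1 TPM rest on few reads and differences among them were not detectable at this depth.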

Other observations

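Genes outside the lists of cell types and pathways gave a few further values. Of 3605 lincRNA genes 191 were detected in Veh-Veh, of 2393 antisense genes 181, and of 7011 processed pseudogenes 1007. Since the kit does not mark strand, counts of antisense genes may hold reads of the genes they overlap. Xist, the RNA of the inactive X chromosome, had 5.10, 4.63 and 7.25 TPM in Veh-Veh, while Ddx3y, Eif2s3y, Kdm5d and Uty, which lie on the Y chromosome, had no read. Over all 12 libraries Xist ranged from 3.64 to 7.74 TPM and the 4 Y-linked genes were at 0. Arc, an immediate early gene best known from active neurons, had 43.8, 54.8 and 48.9 TPM, more than Fos at 11.9, 14.2 and 19.2, in cells where the neuronal early gene Npas4 had no read. The factor Hoxa5 (13.2, 15.7 and 15.8 TPM), which acts in the caudal neural tube, overlapped the cortical factor Otx1 (17.0, 18.1 and 11.6 TPM) in level.

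The genes at 0 in the untreated cells were mostly silent in the whole series. Of the 24242 at 0 in Veh-Veh, 20170 had no read in any of the other 9 libraries, and none reached 1 TPM in all 9. Of 12485 genes with at least 1 TPM in each of the other 9 libraries, 131 were not detected in Veh-Veh. By the rule used, a gene is among the 131 even if only 1 Veh-Veh library fell below 1 TPM. No test was made on these counts.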
